A study of Mus musculus with 6 samples.

Results

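The 10 genes described here encode proteins that neutrophils store in their granules or use when they are activated: Mpo, Elane, Ltf, Camp, Ngp, Lcn2, Slpi, Chil3, Csf3r and Padi4. They were taken by name from the platform's probe annotation, which lists 1 probe set for each of them, out of 18193 genes that have a probe set with 1 gene symbol. Each was measured on 6 Affymetrix arrays of mouse colon tumours, 3 from control mice (wild type, C1 to C3) and 3 from mice transgenic for human IL8 (T1 to T3), all of the mixed strain CBA/C57BL/6. The groups follow the sample titles and genotype labels. The source labels of the transgenic samples name the IL8 transgene but also carry the word control, as those of the wild-type samples do, and the transgene itself was not analysed here, so the expression data do not check the grouping. The labels give male sex for every animal. The sources used here give neither the promoter and cell type that drive the transgene nor the age of the mice, the way the tumours arose, or whether an array holds a lone tumour or a pool. Nothing in the labels says how the samples of a group are related, so p-values measure the spread between these samples, which may be technical. The values are on a log2 scale, as GCRMA gave them to the authors, so a step of 1 is a doubling.

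IL8, also called CXCL8, is a human chemokine that draws neutrophils through the receptors CXCR1 and CXCR2. A neutrophil fills its granules while it matures in the bone marrow. Primary granules, which hold Mpo and Elane, are filled in early precursors, and secondary granules, which hold Ltf, Camp, Ngp and Lcn2, in later ones. Transcripts of primary granule genes have largely gone by the time the cell leaves the marrow, so that their absence from a tissue does not mean that neutrophils are absent. Several of the genes are also made outside neutrophils. Lcn2, Slpi and Ltf are made by mucosal and glandular epithelium, and Slpi by stratified epithelium too. Camp is made by colonic epithelium as well, Chil3 by macrophages and Padi4 by monocytes and macrophages. Mpo, Elane, Ngp and Csf3r are largely confined to myeloid cells. In bulk tumour RNA, fewer cells of a type and less RNA per cell cannot be told apart.

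Some arrays stand apart from their labels or from each other. Xist, the RNA of the inactive X chromosome, was at 12.27 to 12.89 on the 3 transgenic arrays and at 2.33 to 2.64 on the 3 control arrays, while the Y-linked Eif2s3y was at 2.39 to 2.71 and 9.99 to 10.22, although every label says male. Xist thus splits the 6 arrays exactly as genotype does, and the effects of genotype and of this split cannot be told apart. T2 stood apart through genes of stratified squamous epithelium. Over 14 such genes the mean level was 9.28 on T2, 3.97 and 4.09 on T1 and T3, and 3.68 to 4.33 on the control arrays. For Gapdh, the 3′ control probe set exceeded the 5′ one by 0.71 on T1 and by 0.87 to 0.96 elsewhere. The tissue label was met by simple epithelium, since all 12 genes of that list, among them Epcam, Krt8, Cdh1 and Vil1, were at 4 or more on every array.

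A probe set was tested with limma when it reached a log2 value of 4 on at least 3 of the 6 arrays, which 19310 probe sets did. Of the 10 genes, 5 were tested (Ltf, Lcn2, Slpi, Padi4 and Chil3) and 5 were not. Of the latter, 3 (Mpo, Elane and Camp) stayed under 4 on all arrays, Csf3r reached 4 on 1 array and Ngp on 2. In the tested genes, 0 passed an adjusted p of 0.05, against 0.057% of all tested probe sets, and 0 had an unadjusted p under 0.05, against 5.5%. The 95% intervals of all 5 differences included 0. Groups did not overlap for 0 of the 5, against 10.9% of tested probe sets (4.61% with the transgenic arrays higher and 6.31% with them lower). All 5 nevertheless had group means at least 1 log2 unit apart, which 4.51% of tested probe sets did. Of the 5, 3 had the higher mean in transgenic tumours (Ltf, Slpi and Chil3) and 2 in control tumours (Lcn2 and Padi4). Their median difference was 1.29, the value of Chil3, against -0.02 over all tested probe sets. With differences of both signs, this median does not describe a common shift. Chil3 reached the filter through 2 transgenic arrays and 1 control array, so its place among the tested genes is not independent of its transgenic level.

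**Figure D1:**
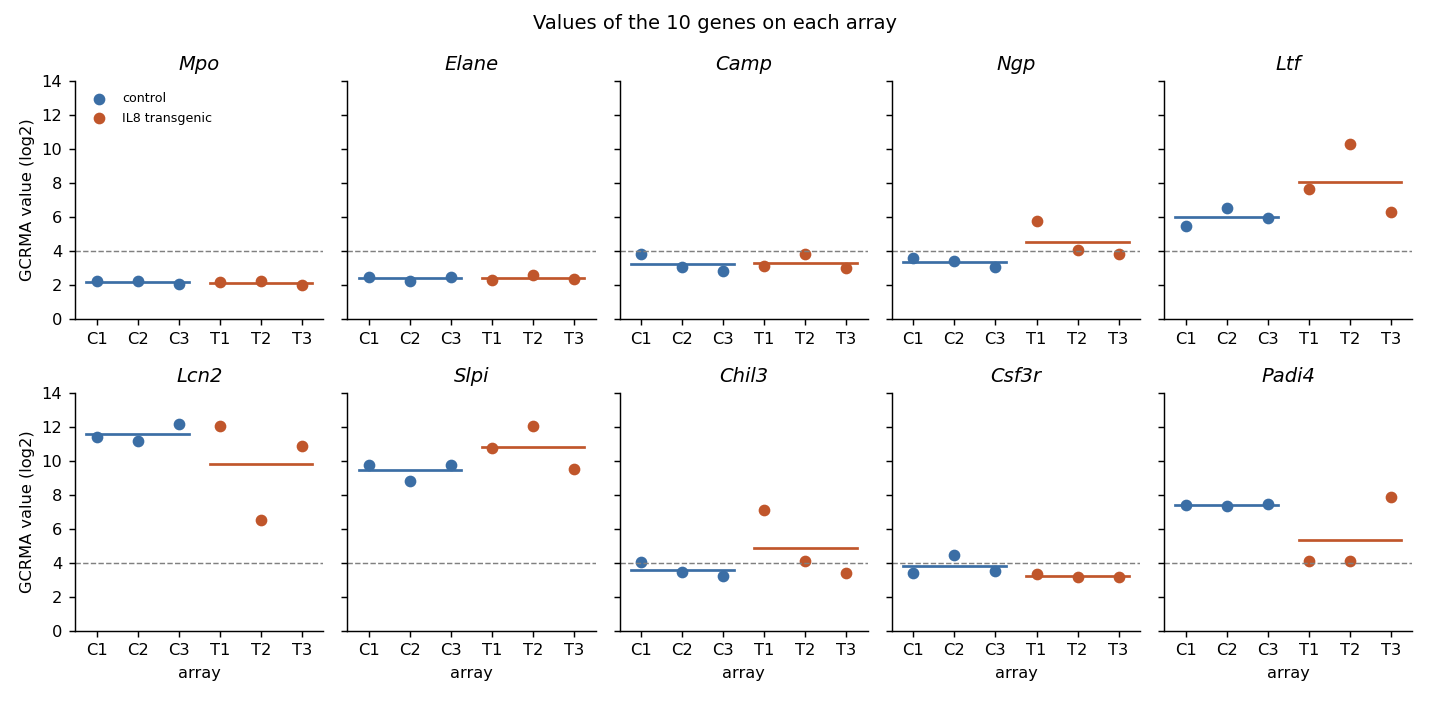
The vertical axis gives the GCRMA value (log2) of each of the 10 genes on each array, the horizontal axis the array (C1 to C3 control, T1 to T3 IL8 transgenic). Points are arrays, solid lines group means and the dashed line the filter value of 4. Mpo, Elane and Camp lie under the dashed line on every array, and Lcn2 on T2 and Padi4 on T1 and T2 lie far below the other arrays.

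The primary granule genes were under the filter in every tumour. Mpo, the myeloperoxidase that makes hypochlorous acid, was at 2.24, 2.22 and 2.09 on C1, C2 and C3 and at 2.21, 2.24 and 2.00 on T1, T2 and T3. Elane, the neutrophil elastase, was at 2.46, 2.27 and 2.47 on the control arrays and at 2.31, 2.58 and 2.35 on the transgenic arrays. Neither gene showed a group that stood apart, and no fold is given between values under the filter. The rest of the primary granule list was alike: Prtn3, Ctsg and Ms4a3, which encode proteinase 3, cathepsin G and a membrane protein of granulocyte precursors, were also under 4 on all 6 arrays.

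The secondary granule genes Camp and Ngp were low as well. Camp, the mouse cathelicidin, an antimicrobial peptide, was at 3.80, 3.09 and 2.82 in control and at 3.10, 3.84 and 3.03 in transgenic tumours, so the groups overlapped under the filter. Ngp, a cystatin-like protein of secondary granules, was at 3.58, 3.43 and 3.05 in control and at 5.78, 4.06 and 3.80 in transgenic tumours. All 3 transgenic values of Ngp were above all 3 control values, but only T1 was clearly over 4. With values under 4 set to 4 its difference was 0.61. Ngp was not tested, because 2 arrays reached the filter. Mmp8, the collagenase of secondary granules, stayed under 4 on all arrays, with control values of 2.24 to 2.30 and transgenic values of 2.57 to 2.99.

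Ltf, Slpi and Lcn2, which epithelium also makes, were measured well above the filter on every array, and their group means differed in opposite directions. Ltf encodes lactoferrin, the iron-binding protein of secondary granules and mucosal secretions. It was at 5.46, 6.55 and 5.96 in control and at 7.64, 10.27 and 6.31 in transgenic tumours. T2 was the highest array, T1 came next, and T3 lay within the control range. The difference was 2.09 ± 0.97 (SE; n = 3 per group, limma adjusted p 0.806), and it was 0.99 without T2 and 2.97 without T3.

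Slpi encodes a secreted inhibitor of neutrophil elastase and cathepsin G that limits damage by these proteases. It was at 9.73, 8.82 and 9.75 in control and at 10.76, 12.06 and 9.51 in transgenic tumours. The order of the transgenic arrays was that of Ltf, with T2 highest and T3 inside the control range. The difference was 1.35 ± 0.65 (SE; n = 3 per group, limma adjusted p 0.806), with a 95% interval of -0.23 to 2.92, and it was 0.70 without T2 and 1.98 without T3.

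Lcn2 encodes lipocalin-2, which binds bacterial siderophores and so withholds iron from bacteria. It was at 11.42, 11.16 and 12.13 in control and at 12.07, 6.49 and 10.85 in transgenic tumours. Only T2 was far from the rest, 5.08 below the control mean, while T1 was within the control range and T3 0.72 below the control mean. The difference was -1.77 ± 1.38 (SE; n = 3 per group, limma adjusted p 0.810), and without T2 it was -0.11. The tumour with the lowest Lcn2 was thus the one with the highest Ltf and Slpi.

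On T2, where these 3 genes departed most, most squamous markers were far above their level on the other arrays, while simple epithelium markers were near theirs. Krtdap, a protein of differentiating keratinocytes, was at 12.31 on T2 and at 2.22 to 2.62 on the other arrays, and Krt5, the keratin of basal keratinocytes, at 10.27 and at 2.66 to 2.86. Sprr1a, a precursor of the cornified envelope, was at 10.19 on T2, at 8.59 on T1 and at 5.15 to 6.55 on the other 4 arrays. The mean level of the 14 squamous genes was 3.68 to 4.33 in control and 3.97 to 9.28 in transgenic tumours, and Ivl, the gene of the envelope protein involucrin, was under 4 throughout. The keratin genes Krt6a and Krt4 differed between group means by 2.73 and 1.85, or by 0.39 and -0.42 without T2, and Sbsn, a keratinocyte product, by 1.71. Sbsn was likewise high on both, at 7.89 on T1 and 8.75 on T2 against 4.22 to 6.84 elsewhere. None passed. The mean level of the 12 simple epithelium genes was 11.64 to 12.06 in control and 11.93 to 12.17 in transgenic tumours, with T2 the highest. Its genes differed between group means by 0.92 for the intestinal transcription factor gene Cdx1, 0.24 for Cdh1, 0.21 for Krt19 and 0.23 for Lgals4, and none passed. The part of squamous epithelium in the values of Ltf, Slpi and Lcn2 was not tested.

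Other genes of the epithelial antimicrobial response, a list of 18 besides Lcn2 and Slpi, did not share 1 direction. Of its 15 tested genes 10 had the higher transgenic mean, 5 the lower, and 0 passed, with a median difference of 0.14. Wfdc2, a secreted protein with the same fold as Slpi, was at 8.63, 8.86 and 5.68 in control and at 10.53, 11.98 and 9.03 in transgenic tumours, and its difference of 2.79 ± 1.07 (SE) did not pass (limma adjusted p 0.806), with a range of 1.77 without C3 to 3.53 without T3. Like Slpi, it was highest on T2, and unlike Slpi it had no overlap between the groups. It was the 1 gene of the 15 that was higher without overlap, against 4.61% of all tested probe sets. Retnlb is a goblet cell protein that acts on bacteria. It was at 6.58, 2.34 and 6.09 in control and at 5.08, 11.69 and 8.54 in transgenic tumours, so the groups overlapped. Its difference was 3.43, from 1.80 without T2 to 5.11 without T1, or 2.88 with values under 4 set to 4. Cxcl5, an epithelial ligand of CXCR2, was at 11.29 to 11.37 in control and at 10.74 to 10.88 in transgenic tumours. Its difference was -0.54, and it was the 1 gene of the 15 lower without overlap, against 6.31% of all tested probe sets. Lyz1, the lysozyme of Paneth cells, differed by -0.41. None of these passed.

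Chil3 encodes Ym1, a chitinase-like protein of mouse neutrophils and of alternatively activated macrophages. It was at 4.04, 3.46 and 3.20 in control and at 7.09, 4.09 and 3.40 in transgenic tumours. T1 alone was clearly above the filter, and the other transgenic arrays were near the control range. The difference was 1.29 ± 0.93 (SE; n = 3 per group, limma adjusted p 0.809), or 1.04 with values under 4 set to 4, and it was 0.18 without T1. Chil3 and Ngp shared T1 as their highest array, 3.52 and 2.43 above their control means.

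Several receptor genes of neutrophils and monocytes were also highest on T1, and others were not. On T1 the mean of the 7 tested genes of the receptor and activation list was 0.93 above the control mean, against -0.97 on T2 and -0.19 on T3. Il1r2, the decoy receptor for interleukin-1, was at 3.88, 4.70 and 4.63 in control and at 6.17, 3.87 and 4.004 in transgenic tumours. Fpr2, a receptor for formyl peptides, was at 6.52 on T1 and at 4.29 to 5.85 elsewhere, and the lectin receptor gene Clec4d at 9.22 and at 5.92 to 7.95. Il1r2, Fpr2 and Clec4d are singled out after their values were seen. In the same list Alox5ap was also highest on T1, at 7.44. Fcgr3 was at 9.25 on T1, near its value of 9.20 on C3. Clec4e and Itgb2, at 4.06 and 6.99 on T1, lay within their control ranges of 3.44 to 4.62 and 6.95 to 7.48. The markers of alternatively activated macrophages gave few measured values: Retnla, Clec10a, Mgl2, Chil4 and Ccl24 did not reach the filter. Arg1, the arginase of such macrophages, was at 11.38, 10.98 and 10.19 in control and at 12.63, 11.39 and 10.73 in transgenic tumours, highest on T1. The other tested gene of that list, Mrc1, went the other way and was lowest on T1. It was at 7.04, 7.49 and 7.42 on T1, T2 and T3, against 7.79 to 7.92 in control tumours. The part of either cell type in the Chil3 value was not tested.

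Csf3r, the receptor for the growth factor G-CSF that drives neutrophil production, was near background. It was at 3.40, 4.46 and 3.52 in control and at 3.32, 3.18 and 3.17 in transgenic tumours. All transgenic arrays were below all control arrays, but C2 was the 1 array at 4 or more, and the gene was not tested. Cxcr2, the mouse receptor for IL8, was under 4 on all arrays, at 2.63 to 3.09, and Itgam, the integrin chain of myeloid cells, was at 3.04 to 4.18. Csf3, the gene of G-CSF itself, was under 4 on all arrays too. Ly6g, Retnlg and Fpr1 were not analysed here.

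Padi4 had the most uniform control values of the tested genes and 2 separate transgenic levels. It encodes the enzyme that converts histone arginines to citrulline when neutrophils release extracellular traps. It was at 7.41, 7.32 and 7.48 in control tumours, an SD of 0.077, and at 4.09, 4.10 and 7.86 in transgenic tumours. T1 and T2 lay 3.32 and 3.30 below the control mean, near the filter, while T3 was above every control array. The difference was -2.05 ± 1.01 (SE; n = 3 per group, limma adjusted p 0.806), with a 95% interval of -4.49 to 0.39. Without T3 it was -3.31 with an adjusted p of 0.00804, the 1 setting in which a gene of the 10 passed, and without T1 or T2 it was -1.42 or -1.43. Leaving out T3 removes the transgenic array that lay with the controls, so this call rests on that choice.

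Some genes of the macrophage list were lowest on T1 and T2 like Padi4, and others were not. Aif1, a calcium-binding protein of macrophages, was at 7.16, 7.92 and 8.22 in control and at 4.63, 4.94 and 7.14 in transgenic tumours. Adgre1, which encodes F4/80 and was singled out after its values were seen, was at 6.05, 6.37 and 6.58 in control and at 4.38, 4.56 and 6.28 in transgenic tumours. Cx3cr1, the fractalkine receptor of monocytes and macrophages, was at 6.22, 6.94 and 6.87 in control and at 3.65, 3.83 and 5.10 in transgenic tumours. Of 12 tested genes in the macrophage list, 11 had the lower transgenic mean and 0 passed, with a median difference of -1.04. In 6 of 12 the transgenic arrays were lower without overlap, against 6.31% of all tested probe sets. Cx3cr1, among these, reached the filter through 3 control arrays and 1 transgenic array, so its place there is not independent of its control level. The mean of the 12 lay below the control mean on all 3 transgenic arrays, by -1.01 on T1, -1.81 on T2 and -0.50 on T3. Csf1r, the receptor for Csf1, was at 10.11 and 10.19 on T1 and T3 and at 8.96 on T2, against 10.58 to 11.02 in control tumours, a difference of -1.02. Mrc1, the mannose receptor, was at 7.04, 7.49 and 7.42 on T1, T2 and T3, against 7.79 to 7.92, a difference of -0.55. Cd68, a lysosomal protein of macrophages, was within the control range on T1, and Cd14, a receptor for bacterial lipopolysaccharide, was highest on T1 at 11.43 against 10.22 to 10.39 in control tumours. Both were singled out after their values were seen. The mean level of its 13 annotated genes was 7.60 to 8.19 in control and 6.29 to 7.50 in transgenic tumours, and Cd163, a scavenger receptor, was under 4 on every array. Ptprc, the leukocyte marker CD45, had the same low arrays, at 8.56 on T1 and 8.58 on T2 against 9.55 on T3 and 9.56 to 10.08 in control tumours. The part of macrophages in the Padi4 values was not tested.

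**Figure D2:**
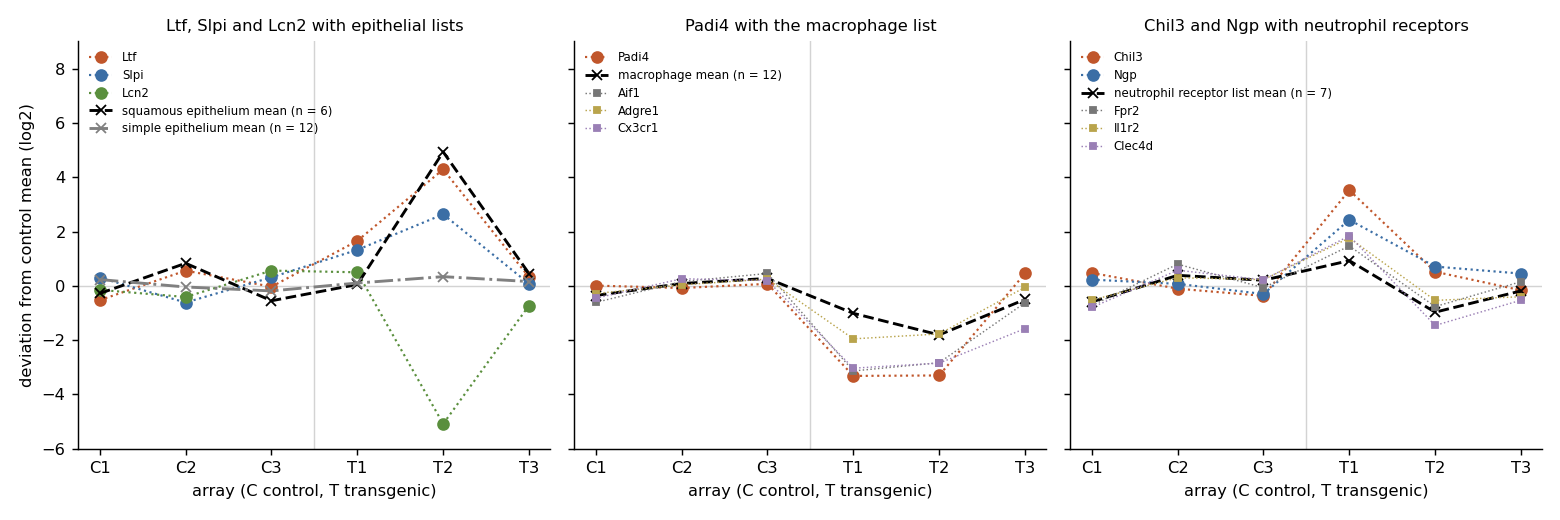
The vertical axis gives the deviation from the control mean (log2) on each array, with the array on the horizontal axis (C control, T transgenic). Coloured circles are the genes, squares other single genes and crosses the mean of a list's tested genes, and the lines only guide the eye. Ltf and Slpi are high and Lcn2 low on T2 where the squamous list is 4.93 above its control mean, and Chil3 and Ngp are high on T1. Padi4 is low on T1 and T2 with Aif1, Adgre1 and Cx3cr1. On T3 Padi4 is above every control array, while Cx3cr1 is low there too, at 5.10 against 6.22 to 6.94 in control tumours. Adgre1, Il1r2, Fpr2 and Clec4d were singled out after their values were seen.

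To set the genes beside their regulatory sequence, the 250 bases before the annotated start of each of the 5 tested genes are printed. They are from RefSeq, build GRCm38.p6, 5′ to 3′ on the gene's strand. Capitals mark matches, on either strand, to TTNNGNAA (C/EBP factors, which drive granule genes and act with NF-kB on Lcn2), GAGGAA (PU.1, the myeloid Ets factor), GGNNTTTCC (NF-kB) or the core promoter letters TATAAA.
Ltf, chr9:111019042-111019291, plus strand: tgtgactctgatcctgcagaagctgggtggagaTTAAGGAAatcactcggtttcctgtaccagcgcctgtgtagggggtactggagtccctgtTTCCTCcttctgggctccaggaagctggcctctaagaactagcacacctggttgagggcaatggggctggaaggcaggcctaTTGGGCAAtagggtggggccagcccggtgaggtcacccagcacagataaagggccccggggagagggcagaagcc
Slpi, chr2:164356508-164356757, minus strand: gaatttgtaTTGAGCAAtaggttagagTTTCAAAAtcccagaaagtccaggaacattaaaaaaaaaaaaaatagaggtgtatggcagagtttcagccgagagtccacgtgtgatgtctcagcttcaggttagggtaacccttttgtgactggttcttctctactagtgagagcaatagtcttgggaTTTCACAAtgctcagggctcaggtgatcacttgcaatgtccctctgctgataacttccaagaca
Lcn2, chr2:32387740-32387989, minus strand: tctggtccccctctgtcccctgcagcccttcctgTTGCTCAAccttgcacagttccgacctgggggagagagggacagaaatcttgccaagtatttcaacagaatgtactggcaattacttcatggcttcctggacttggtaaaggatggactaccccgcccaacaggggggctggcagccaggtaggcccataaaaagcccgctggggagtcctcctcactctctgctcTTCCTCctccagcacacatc
Chil3, chr3:106167565-106167814, minus strand: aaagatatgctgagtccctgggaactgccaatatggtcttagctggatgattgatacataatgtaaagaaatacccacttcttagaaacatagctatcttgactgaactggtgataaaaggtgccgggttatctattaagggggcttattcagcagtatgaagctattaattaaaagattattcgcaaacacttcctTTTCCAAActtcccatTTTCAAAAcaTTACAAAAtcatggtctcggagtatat
Padi4, chr4:140774204-140774453, minus strand: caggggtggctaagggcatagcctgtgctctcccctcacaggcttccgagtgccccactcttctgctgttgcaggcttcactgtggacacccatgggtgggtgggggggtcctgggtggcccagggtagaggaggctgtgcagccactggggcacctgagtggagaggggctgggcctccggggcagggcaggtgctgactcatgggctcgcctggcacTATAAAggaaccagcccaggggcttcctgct

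Ltf and Slpi, both highest on T2, hold 2 and 3 matches to the C/EBP letters. Lcn2, lowest on T2, holds 1, together with a match to the PU.1 letters, which Ltf has too. Chil3 holds 3 C/EBP matches within 53 bases of the start. Padi4 holds none of the C/EBP or PU.1 letters and has the TATAAA letters 31 to 26 bases before the start. Over the 10 genes, 5 hold the C/EBP letters and 5 the PU.1 letters, against 36.8% and 23.3% of 32851 promoter windows of this length. The NF-kB letters were found in 0 of the 10, against 4.93%, and the TATAAA letters in 1, against 12.4%. These are matches of letters in a short window. They show no binding, and a missing match says nothing about the factor.

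The 5 tested genes varied far more among the transgenic than among the control arrays. The SD of Lcn2 was 2.93 among transgenic and 0.50 among control arrays, that of Padi4 2.17 and 0.077, that of Ltf 2.02 and 0.54, that of Chil3 1.96 and 0.43 and that of Slpi 1.28 and 0.53 (n = 3 per group). The median SD over all tested probe sets was 0.31 and 0.20. The transgenic SD of Lcn2 exceeded that of 99.7% of tested probe sets, and those of Padi4, Ltf, Chil3 and Slpi that of 99%, 98.8%, 98.8% and 96.1%. Among control arrays the share was 12.7% for Padi4 and 86% to 92% for the other 4. The difference in spread between the groups was not tested, and with 3 arrays per group an SD is itself imprecise.

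**Figure D3:**
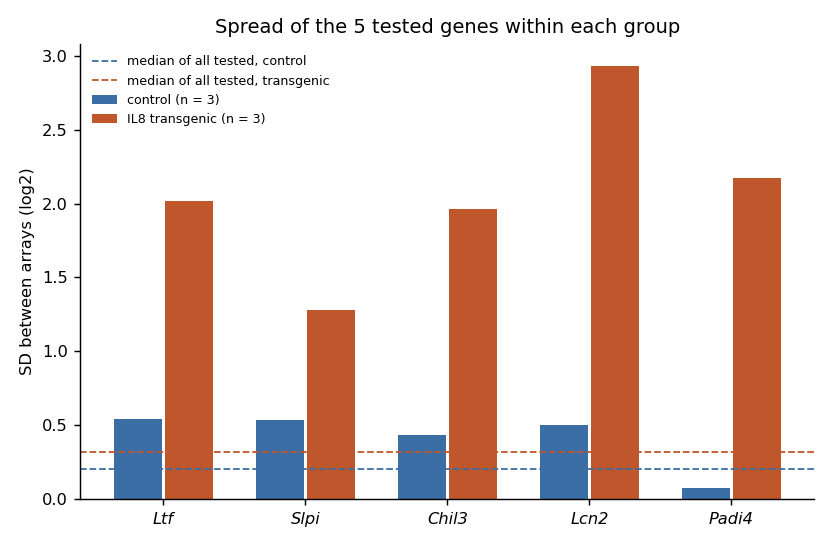
Bars give the SD between the 3 arrays of each group (log2, vertical axis) for the 5 tested genes, and dashed lines the median SD over all tested probe sets. Every gene has the taller transgenic bar, from 1.28 for Slpi to 2.93 for Lcn2, and Padi4 has the shortest control bar, 0.077.

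**Figure D4:**
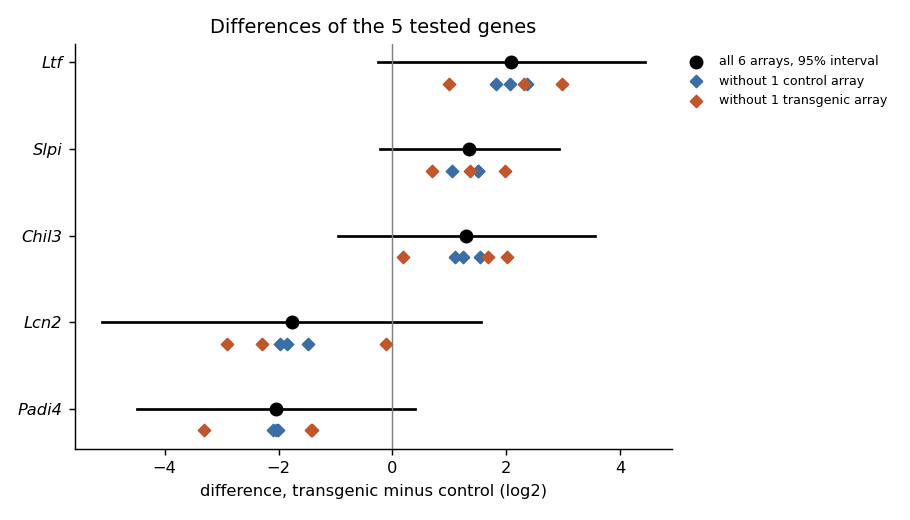
The horizontal axis gives the difference, transgenic minus control (log2), for each of the 5 tested genes. Black points and lines are the limma estimate and its 95% interval from all 6 arrays, and diamonds the estimates with 1 array left out. All 5 intervals cross 0, and the Lcn2 estimate without T2 lies at -0.11.

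The other neutrophil genes had differences of both signs, and none passed. S100a8 and S100a9, the cytoplasmic calprotectin subunits that epithelium can also make, were higher on all 3 transgenic arrays than on any control array, at 11.13 to 11.72 against 10.36 to 10.87 and at 10.85 to 11.81 against 10.05 to 10.78. Their differences of 0.78 and 1.02 did not pass (limma adjusted p 0.806 for both). Wfdc21, a small secreted protein, was at 3.82, 3.83 and 4.16 in control and at 5.63, 4.95 and 5.19 in transgenic tumours, a difference of 1.32 that did not pass either (limma adjusted p 0.764). Unlike the 5 tested genes, these 3 had no overlap between the groups. Wfdc21 reached the filter through 3 transgenic arrays and 1 control array, so its place among the tested genes is not independent of its transgenic level. Of the 6 tested genes of this marker list, 5 had the higher transgenic mean, and its median difference was 0.60. The 3 without overlap, all with the transgenic arrays higher, stand against 4.61% of all tested probe sets. Pglyrp1, a granule protein that binds bacterial cell walls, was at 9.72 to 11.28 over the 6 arrays and differed by -0.61. The cell types behind its values were not tested.

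Among the other secondary and tertiary granule genes, 1 of 4 tested had the higher transgenic mean, and 0 passed. Mmp9, the gelatinase of tertiary granules, was at 8.06, 8.39 and 8.31 in control and at 6.96, 4.08 and 7.87 in transgenic tumours, lowest on T2 like Lcn2, and its difference was -1.95 (-0.83 without T2). Cybb and Cyba, the membrane subunits of the phagocyte oxidase, differed by -0.94 and -0.40. Cd177, a neutrophil surface protein, was at 9.14 to 10.80 over the 6 arrays, while Cxcr2 and Mmp8 were under 4. It differed by 0.22, but by -0.20 without C2 and -0.076 without T1. The cell types behind the Cd177 values were not tested. In the receptor list, 3 of 7 tested genes had the higher mean and 0 passed. Alox5ap, which serves leukotriene synthesis, differed by 0.67, the integrin gene Itgb2 by -0.66, the lectin receptor gene Clec4e by -0.51 and the Fc receptor gene Fcgr3 by -0.54 (0.066 without T2).

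A list of growth factors, signalling genes and transcription factors linked to G-CSF and myeloid cells held 6 tested genes. All 6 had the lower transgenic mean and 0 passed, with a median difference of -0.23. Not all of these genes act upstream of neutrophil production. The smallest difference was that of Cebpb, -0.026, and Gfi1 differed by -0.21. Csf1, the macrophage growth factor, differed by -1.35 (-0.58 without T2) and the transcription factor gene Cebpd by -0.37. Stat3, which acts downstream of the G-CSF receptor, differed by -0.18 and its feedback inhibitor Socs3 by -0.26. Csf2, Il17a and Spi1 were under 4 on all arrays.

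Among markers of other cells, the eosinophil list was under 4 in all 5 genes on all arrays. Of 5 tested mast cell genes 4 had the lower transgenic mean, and the mast cell proteases Mcpt1 and Mcpt2 were lowest on T2, at 2.77 and 3.27. Cpa3, the mast cell carboxypeptidase, differed by -1.14, or by -0.33 with values under 4 set to 4. It reached 4 on 2 control arrays and 1 transgenic array. Kit, the stem cell factor receptor, differed by 0.37 (-0.029 without T3). Jchain, which plasma cells make, differed by 0.25 (-0.15 without C3). The mean level of the 8 annotated mast cell genes was 4.48 to 5.37 in control and 3.12 to 4.93 in transgenic tumours. In the list of stroma and endothelium 5 of 6 tested genes were lower in the transgenic mean, among them Pdgfra, a fibroblast receptor, by -1.24 and Col3a1, a fibrillar collagen, by -0.81 (-0.29 without T1). Pdgfrb and Cdh5, of pericytes and endothelium, differed by -0.40 and -0.31. The mean level of all 8 annotated genes of that list did not fall alike. It was 8.17 to 8.24 in control tumours and 7.35, 8.80 and 8.39 on T1, T2 and T3. Des, a gene of the list that was not tested, was at 3.06 to 3.85 in control tumours. On T1, T2 and T3 it was at 3.03, 8.41 and 7.04. In these lists 0 genes passed.

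The genes whose profile over the 6 arrays was closest were sought among 10288 other tested genes by the root mean square difference of values centred on each gene's mean. For Lcn2 they were Sp5, Plat, Pdgfrl and Sbspon, at 0.27, 0.28, 0.34 and 0.38. Sp5, a transcription factor gene induced by Wnt signals, was at 4.05 on T2 and at 8.93 to 9.91 elsewhere, and Plat, the tissue plasminogen activator, at 6.62 and at 11.18 to 12.27. For Slpi they were Inpp5a (0.24), Myo5a (0.31), Dsel (0.32) and Mfsd9 (0.37). For Ltf they were Trim29 and Gpnmb (0.49 each), Gjb2 (0.56) and Slc6a20a (0.60). Gjb2, a gap junction gene, was at 8.48 on T2 and at 4.83 to 6.52 elsewhere.

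For Padi4 the closest genes were Psrc1, Hs3st3b1 and Aif1, all at 0.57, and Ptpro at 0.60. Of these 4, Aif1 is in the macrophage list. For Chil3 they were Dixdc1 (0.31), Serpina3n (0.34), Ccn2 (0.37) and Gm14137 (0.41). Serpina3n, an acute-phase protease inhibitor, was at 7.71 on T1 and at 3.97 to 4.46 elsewhere. Likeness over 6 arrays among so many genes is a description and does not show shared control.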

How the data were processed

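Gene expression was measured on 6 Affymetrix arrays, 3 control and 3 IL8 transgenic, grouped by sample title. The deposited values are log2 expression values per probe set that the authors made with GCRMA, per the submitters' processing notes. No GCRMA version or genome build is given in the sources used here. That the scale is log2 follows from the span of the numbers. Array medians were 3.31 to 3.36. Values were used as deposited. GCRMA pulls weak probe sets to a low common level, so values under about 4 carry little information.

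Probe sets were named from the platform annotation. Of 45101, the 64 AFFX controls and those under 4 on more than 3 arrays were left out, and limma 3.58.1 (R 4.3.3; lmFit, eBayes) compared the groups over 19310 probe sets with Benjamini-Hochberg adjustment. The fit was tested on simulated data in which every probe set had the same SD in both groups, the median control SD of 0.20. That run does not gauge the power for genes with the larger transgenic spread seen here. The number of arrays limits the precision.

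The 10 genes, the marker lists and the alternatives were chosen with earlier results of these data known. Besides the 10, up to 4 genes of each list with the smallest unadjusted p were named, with S100a8, S100a9, Cxcr2, Itgam, Mmp9, Mmp8, Cd177, Csf3, Krtdap, Krt5 and Ptprc. Exceptions are stated. Lists leave out the 10 genes, and a gene with several probe sets is given by its brightest. Profiles were compared for genes spanning at least 2 log2 units, 4 closest genes each. Alternatives were other filters (none, or 6), quantile normalization, median centring, a trended robust prior, array weights, a replicate block, a floor of 4 for lower values, an adjusted p of 0.1, no X- and Y-linked genes, and each array left out. The mean over a gene's probe sets was planned, but each of the 10 has 1 probe set. Promoter windows came from RefSeq tables of GRCm38.p6.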

Additional observations from a re-analysis of the deposited data

How the results depend on the processing

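The count of the 10 genes that passed was 0 in every alternative but the one without T3, where it was 1 (Padi4), so it ran from 0 to 1 with an array left out. The signs of the Ltf, Lcn2, Slpi, Padi4 and Chil3 differences were kept in all alternatives run, but their sizes moved. With array quality weights they were 1.10 for Ltf, -1.19 for Lcn2, 0.89 for Slpi, -0.71 for Padi4 and 0.43 for Chil3, and the cause was not tested. Chil3 did not pass the stricter filter at 6, so it has no value there. Over all tested probe sets, 11 passed in the main setting and 3 without the 476 probe sets on the X or Y chromosome. Of the other genes whose differences were recomputed, 12 changed sign with an array left out: Cd177 ran from -0.20 to 0.54, Fcgr3 from -1.01 to 0.066, Krt4 from -0.42 to 3.45, Kit from -0.029 to 0.81, Jchain from -0.15 to 0.54, Il1r2 from -0.47 to 0.68, Fpr2 from -0.31 to 0.81, Clec4d from -0.99 to 0.66, Cd14 from -0.065 to 0.58, Plat from -2.67 to 0.16, Serpina3n from -0.091 to 1.78 and Gm14137 from -0.012 to 1.31. With array quality weights Il1r2 and Fpr2 also changed sign, to -0.17 and -0.019. With the replicate number as a block, 8 probe sets passed, 0 of them among the 10 genes. Deviations of arrays with the same number correlated at -0.27, -0.28 and -0.051, and 0 of 6 arrays matched its own number best, so the numbers are not taken as pairs. Signal limits what can be said of Mpo, Elane, Camp, Csf3r and Ngp, which lay mostly under 4.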
